A study of Homo sapiens with 6 samples.

Results

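The TGF-β ligands TGFB1, TGFB2 and TGFB3, their receptors TGFBR1, TGFBR2 and TGFBR3, and the latent TGF-β binding proteins LTBP1, LTBP2, LTBP3 and LTBP4 were examined gene by gene in 2 human lung epithelial cell lines given TGF-β1. The 10 genes were taken by their symbols from 25737 entries in the count tables, and each symbol had 1 entry. Ligand is made as a precursor that is cut inside the cell and then stays non-covalently bound to its own propeptide, so that it cannot reach a receptor. LTBP1, LTBP3 and, less well, LTBP4 bind this latent complex through a disulfide bond and tether it to the extracellular matrix, whereas LTBP2 is a related matrix protein that does not bind it in this way. Once released by integrins, proteases or other proteins, the ligand is bound by the type II receptor TGFBR2, which phosphorylates the type I receptor TGFBR1, and TGFBR1 in turn phosphorylates SMAD2 and SMAD3. TGFBR3, also called betaglycan, is a coreceptor that presents ligand, TGFB2 above all, to TGFBR2.

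A549 is a lung adenocarcinoma cell line and BEAS-2B is an immortalised line from normal bronchial epithelium. Cells of each line were left untreated as the control or were given recombinant TGF-β1 at 1 or 5 ng/mL for 48 h, and 1 3′-end mRNA library was made for each of the 6 conditions. Growth medium held 10% FBS and the medium of the treated cells held 1% FBS. The labels do not state the medium of the control cells during those 48 h, so that TGF-β1 and a change of serum cannot be told apart if these media differed. With 1 library per condition no difference has a replicate check, and no p-value is given. Intervals are exact 95% intervals that cover counting error only.

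The libraries held 4120624 to 7841350 counts. Counts were scaled to a common library size by TMM, and the ND value is log2 of the scaled count plus 1. A gene was called a DEG with an FC of 2 or more, up or down, provided that either library of the comparison had an ND value of 7 or more. That minimum equals 101 to 185 counts depending on the library. Here "rose" and "fell" are used only for called genes. A count of 0 allowed a level of up to 0.383 to 0.728 CPM. PMEPA1, a target gene of the pathway, had 3089, 23780 and 19781 counts in A549 at 0, 1 and 5 ng/mL and 489, 10397 and 9453 counts in BEAS-2B, called as higher in every treated library than in its control. Among epithelial markers, CDH1 had 640, 30 and 8 counts in A549 and KRT8 had 6112, 2785 and 1792, whereas in BEAS-2B CDH1 had 0 to 2 counts, EPCAM was at 0 in all 3 libraries and KRT8 had 372, 204 and 175 counts. CDKN2A, at a locus known to be deleted in A549, had 0 to 2 counts there and 818 to 2502 in BEAS-2B, although its neighbour MTAP, also listed as lost, had 26 to 171 counts in A549. Of the fibroblast, endothelial and leukocyte markers, only PDGFRB in BEAS-2B reached the minimum, and it was not called at either dose. Elsewhere these markers were under the minimum and could not be called, although some differed from the control beyond counting error. DCN had 2, 53 and 6 counts in A549, with a ratio of 15.7 (4.14 to 133) at 1 ng/mL and an interval that held 1 at 5 ng/mL. CD14 was lower in every treated library, with 57, 24 and 14 counts in A549 and 24, 3 and 2 in BEAS-2B. PDGFRB had 118 to 178 counts in BEAS-2B, and of 9 other such markers the highest count was 57, of CD14 in the A549 control. The part of cell state or cell mixture in the values below was not tested, and in such bulk libraries fewer cells that express a gene and less RNA per cell cannot be told apart.

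The starts of the 10 genes were searched for 6 short motifs that are known to lie near start sites or to be read by factors that respond to growth factors. RefSeq windows from 250 bases before to 50 bases after each start in GRCh38.p14 were read on both strands, which gave 23 windows for the 10 genes and 35116 in all. Windows of 30 bases are shown for 5 of the 10 genes, with the motif in capitals.
TGFB1, GC box, chr19:41353944-41353973, minus strand: gggtggggccggGGGCGGcttcaaaacccc
TGFB2, E-box and TATA box, chr1:218345285-218345314, plus strand: gaCACGTGgttcagagagaactTATAAAtc
TGFB3, TATA box, chr14:75982008-75982037, minus strand: atgggagggaggTATAAAatttcagcagag
TGFBR2, AP-1 site, chr3:30606583-30606612, plus strand: gttgaagttgagTGAGTCActcgcgcgcac
LTBP1, CRE, chr2:32946848-32946877, plus strand: gatctgccgccTGACGTCAcgtctgccgga

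A TATAAA sequence was found in 2 of the 23 windows, 1 of TGFB2 and 1 of TGFB3, and in 11.5% of all windows. It began at position -29 in TGFB2 and -30 in TGFB3 relative to the RefSeq start of that window. The E-box CACGTG was also found in 2 of the 23 windows, of the same 2 genes, and in 7.26% of all windows. In TGFB2 both motifs lay in the same window, whereas in TGFB3 they lay in the windows of different starts. The GC box GGGCGG was found in 12 of the 23 windows, of TGFB1, TGFBR1, TGFBR2, TGFBR3, LTBP2, LTBP3 and LTBP4, and in 45% of all windows. The AP-1 motif TGANTCA was found in 1 of the 23, of TGFBR2, and in 7.71% of all windows, and the CRE TGACGTCA in 1, of LTBP1, and in 1.85%. The SMAD palindrome GTCTAGAC, present in 0.202% of all windows, was in none of the 23. These matches describe the letters only and are no evidence of binding.

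Across the 4 treated libraries TGFB1 was the only 1 of the 10 genes called each time, with 8 genes reaching the minimum in each of these comparisons. In A549 at 1 ng/mL, 4 of the 10 genes rose (TGFB1, TGFBR1, LTBP3 and LTBP4) and none fell, whereas 10.9% of the 7007 entries tested rose and 12.6% fell. TGFBR2 lay so close to the threshold there that 6 alternatives of scaling, filter or pseudocount called it as lower, and TGFB2 was called as higher once the GC trend was removed. At 5 ng/mL in A549, 5 rose, now with LTBP2, and TGFBR2 fell, against 16.1% and 17.1% of 7115 entries. In BEAS-2B the same 3 genes, TGFB1, LTBP1 and LTBP2, rose at both doses and none fell. The shares of all entries were 5.66% up and 9.13% down at 1 ng/mL and 7.33% up and 11.6% down at 5 ng/mL. The median log2 FC of the 10 genes was 0.81 and 0.89 in A549 at 1 and 5 ng/mL and 0.61 and 0.54 in BEAS-2B. All entries tested had reached the minimum. Over the 8 genes that reached it the median was 1.46 and 1.71 in A549, beside 0.09 and 0.11 over all entries tested. In BEAS-2B these values were 0.63 and 0.71, beside 0.01 and 0.03. The 2 doses of a cell line share their control library, so that they are not independent of each other.

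**Figure D1:**
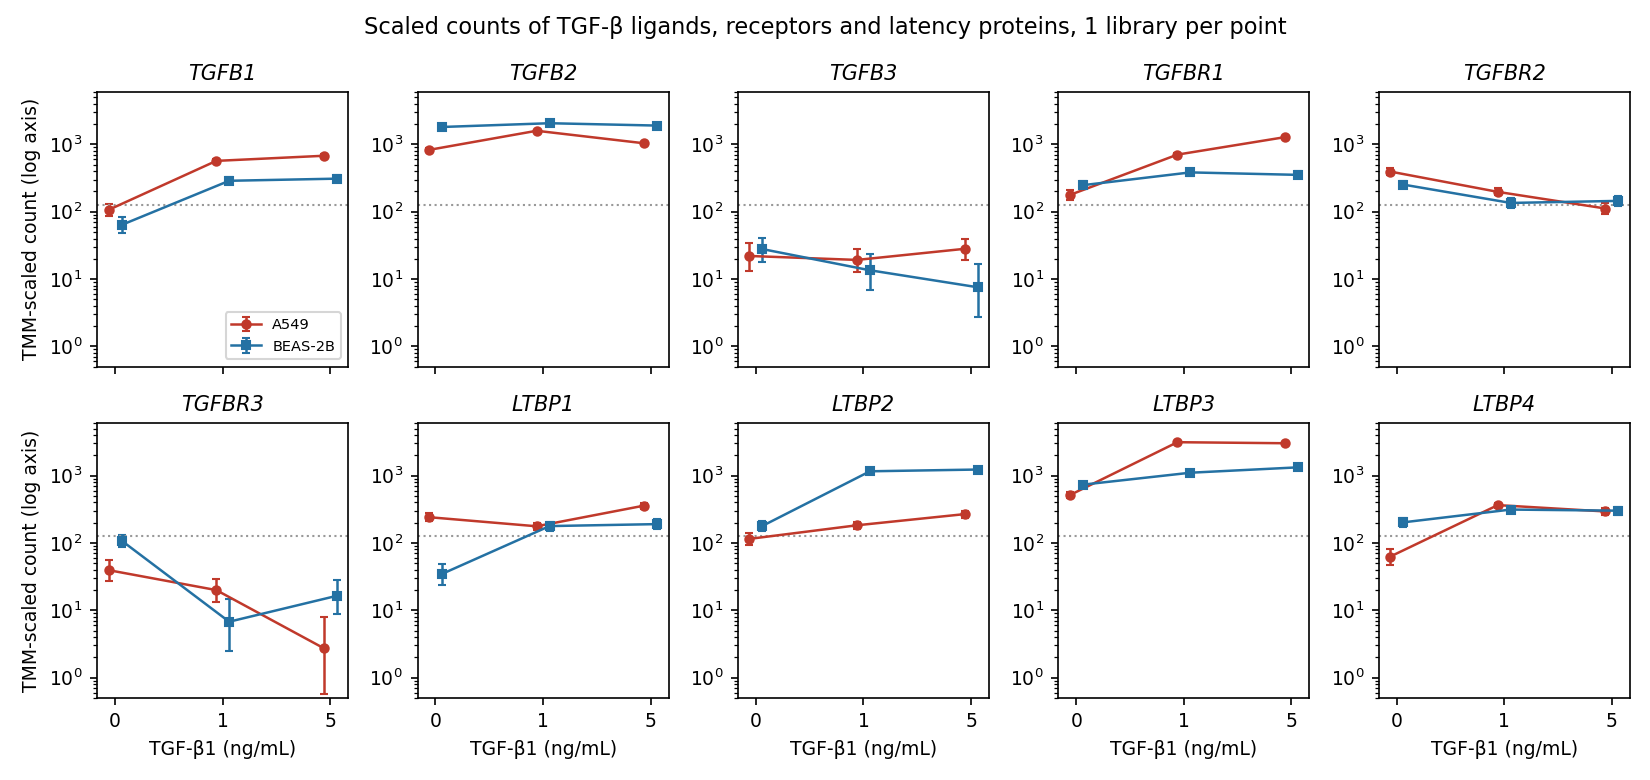
TMM-scaled counts (log axis) of the 10 genes at 0, 1 and 5 ng/mL TGF-β1 in A549 (circles) and BEAS-2B (squares), 1 library per point, with exact 95% counting intervals as bars and the ND value of 7 as a dotted line. TGFB1 is higher in all 4 treated libraries than in its controls, TGFBR1, LTBP3 and LTBP4 step up in A549, LTBP1 and LTBP2 step up in BEAS-2B, and TGFB3 and TGFBR3 stay under the dotted line throughout.

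Among the ligands, TGFB1, the isoform with which the cells were treated, rose in both cell lines. It had 92, 828 and 747 counts in A549 at 0, 1 and 5 ng/mL and 57, 256 and 246 counts in BEAS-2B. Both controls were under the ND value of 7 and all 4 treated libraries were above it. Against the control, TGFB1 was 5.34-fold (4.30 to 6.69) and 6.36-fold (5.11 to 7.98) higher in A549. In BEAS-2B it was 4.53-fold (3.39 to 6.15) and 4.87-fold (3.64 to 6.62) higher. Most of the difference was present at 1 ng/mL, since the ratio of 5 over 1 ng/mL was 1.19 (1.08 to 1.32) in A549 and 1.08 (0.899 to 1.29) in BEAS-2B. The transcript is counted by its endogenous 3′ end, so that the added protein itself is not measured.

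TGFB1, at chr19:41301587-41353911 on the minus strand in GRCh38, overlaps HNRNPUL1, CCDC97 and TMEM91 on the opposite strand, and whether the counting used strand is not given in the sources used here. TMEM91 had 99, 624 and 249 counts in A549, ratios of 3.74 and 1.97, and 161, 77 and 81 in BEAS-2B, ratios of 0.482 and 0.568. HNRNPUL1 had 1912, 4151 and 2754 counts in A549, ratios of 1.29 and 1.13, and 2168, 1770 and 1618 in BEAS-2B, ratios of 0.824 and 0.843. CCDC97 had 84, 235 and 181 counts in A549, ratios of 1.66 and 1.69, and 75, 62 and 70 in BEAS-2B, ratios of 0.834 and 1.05. These 3 genes were thus higher than their control in the treated A549 libraries, as TGFB1 was. In treated BEAS-2B none of these 3 genes was higher beyond counting error, and the CCDC97 interval at 5 ng/mL was 0.750 to 1.48. The part of these overlapping genes in the TGFB1 counts was not tested. Requiring an ND value of 7 in both libraries ended each of the 4 TGFB1 calls, because both controls lay under it.

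TGFB2, the isoform that depends most on betaglycan for receptor binding, was not called against the control in any of the 4 treated libraries. Its counts were 715, 2319 and 1144 in A549 and 1626, 1833 and 1511 in BEAS-2B. In A549 the ratio was 1.92 (1.77 to 2.09) at 1 ng/mL and 1.25 (1.14 to 1.38) at 5 ng/mL, so that the higher dose had the smaller difference. In BEAS-2B the ratio was 1.14 (1.06 to 1.22) and 1.05 (0.978 to 1.13). The ratio of TGFB2 to TGFB1 counts within a library fell by 2.77-fold (2.20 to 3.54) and 5.07-fold (3.99 to 6.5) in A549. In BEAS-2B it fell by 3.98-fold (2.95 to 5.45) and 4.64-fold (3.44 to 6.36). Such a ratio within a library does not depend on the scaling, but its size depends on the overlapping entry described next. It also keeps any trend with GC content, which was 39.9% for TGFB2 and 58.8% for TGFB1.

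A further entry lies inside the 3′ part of TGFB2 on the same strand, the noncoding RNA TGFB2-OT1 at chr1:218442626-218443996. It had 544, 1535 and 624 counts in A549 and 1358, 1119 and 930 in BEAS-2B, fewer than TGFB2 in every library. How reads that fall in both were assigned is not given in the sources used here. If each TGFB2-OT1 count was also counted in TGFB2, the remainder was 171, 784 and 520 counts in A549 and 268, 714 and 581 in BEAS-2B. The log2 FC of this remainder was 1.44 and 1.25 in A549 and 1.42 and 1.29 in BEAS-2B, all above 1. The ratio of this remainder to TGFB1 fell by 1.96-fold and 2.67-fold in A549 and by 1.69-fold and 1.99-fold in BEAS-2B, less than with all TGFB2 counts. If the counts were instead split between both entries, the log2 FC of their sum was 0.86 and 0.14 in A549 at 1 and 5 ng/mL, and -0.0029 and -0.11 in BEAS-2B. The response of TGFB2 is therefore uncertain, and these sums were added after its values had been seen.

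The antisense RNA TGFB2-AS1, at chr1:218344196-218345678 on the minus strand, spans the TGFB2 window printed above. It had 100, 586 and 452 counts in A549 and 183, 582 and 423 counts in BEAS-2B. It rose in all 4 treated libraries, by 3.47-fold (2.81 to 4.34) and 3.54-fold (2.84 to 4.44) in A549 and by 3.21-fold (2.71 to 3.81) and 2.61-fold (2.19 to 3.12) in BEAS-2B. In GENCODE v29 it ends before TGFB2 begins at 218346235, so that these 2 entries do not overlap in that annotation. The RefSeq start of TGFB2 used for that window lies inside TGFB2-AS1, however, so that by this start the 2 genes overlap on opposite strands. The annotation and strand setting of the counts are not given in the sources used here.

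**Figure D2:**
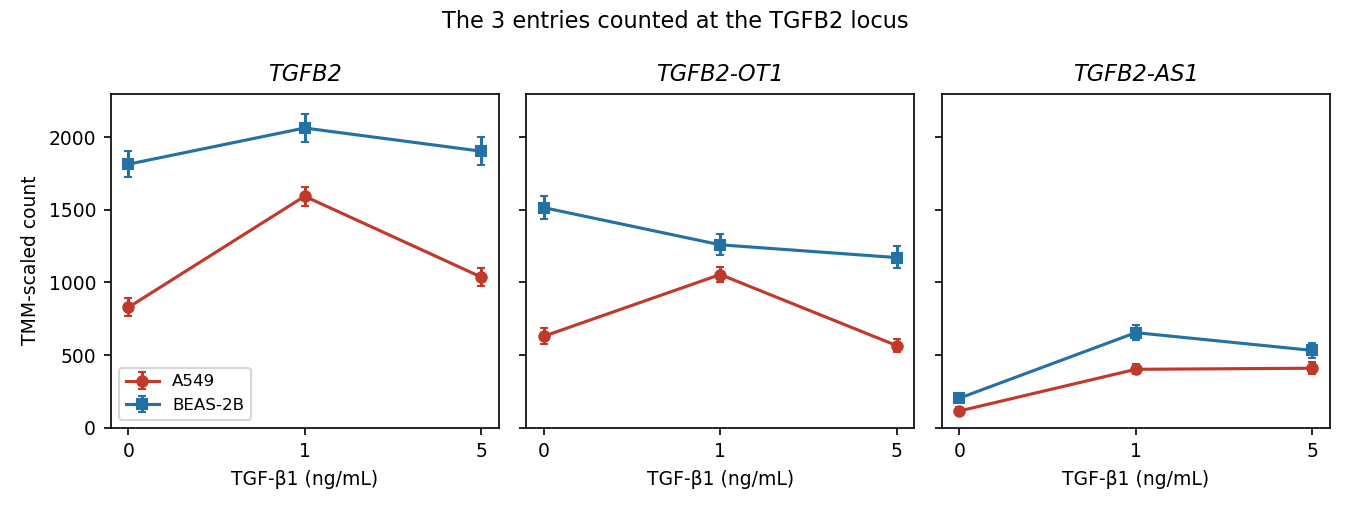
TMM-scaled counts (linear axis from 0) of TGFB2, of TGFB2-OT1 inside its 3′ part and of TGFB2-AS1 on the opposite strand, by TGF-β1 dose in A549 (circles) and BEAS-2B (squares), 1 library per point with exact 95% counting intervals. TGFB2 and TGFB2-OT1 both peak at 1 ng/mL in A549, TGFB2-OT1 is below its control in treated BEAS-2B, and TGFB2-AS1 is higher than its control in all 4 treated libraries.

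TGFB3, known for its part in palate closure and lung development, had 19, 28 and 31 counts in A549 and 25, 12 and 6 in BEAS-2B. It never reached an ND value of 7 and could not be called. In A549 both intervals held 1, with ratios of 0.874 (0.471 to 1.66) and 1.28 (0.699 to 2.39), so that a difference was not detectable at this depth. In BEAS-2B the ratio was 0.484 (0.222 to 1.00) at 1 ng/mL and 0.271 (0.0909 to 0.677) at 5 ng/mL. TGFB3 thus had fewer counts in treated BEAS-2B, by a margin that passed counting error at the higher dose. IFT43, a ciliary transport gene that overlaps TGFB3 on the opposite strand, had 100, 14 and 12 counts in A549 and 47, 5 and 1 in BEAS-2B.

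The signalling receptors moved in opposite directions in A549 at 5 ng/mL. TGFBR1, the type I receptor kinase, had 153, 1026 and 1413 counts in A549 and 222, 341 and 280 in BEAS-2B. It rose 3.98-fold (3.35 to 4.74) and 7.23-fold (6.12 to 8.60) in A549, where 5 ng/mL exceeded 1 ng/mL by 1.82-fold (1.68 to 1.97). TGFBR1 was the gene of the 10 with the largest ratio at 5 ng/mL in A549. In BEAS-2B its ratio was 1.55 (1.30 to 1.84) and 1.42 (1.19 to 1.71), above 1 beyond counting error but under the FC of 2.

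TGFBR2, the type II receptor that binds the ligand, had 341, 287 and 123 counts in A549 and 227, 120 and 115 in BEAS-2B. All 4 treated libraries were under their control on the scaled level. In A549 it was 2.0-fold (1.71 to 2.35) lower at 1 ng/mL, just short of a call (log2 FC from -1.16 to -0.91 over the alternatives), and fell 3.54-fold (2.87 to 4.39) at 5 ng/mL. In BEAS-2B it was 1.88-fold (1.5 to 2.36) and 1.75-fold (1.39 to 2.21) lower, which was no call, although total-count scaling gave a log2 FC of -1.03 at 1 ng/mL and so a call. Set against each other within a library, TGFBR1 counts per TGFBR2 count went from 0.449 in the A549 control to 3.57 and 11.5. That was a change of 7.97-fold (6.28 to 10.1) and 25.6-fold (19.5 to 33.7). In BEAS-2B the ratio went from 0.978 to 2.84 and 2.43, a change of 2.91-fold (2.18 to 3.88) and 2.49-fold (1.85 to 3.35). Levels are not compared between genes here, because capture of 3′ ends differs between them, and only the change of such a ratio is read.

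TGFBR3, the betaglycan coreceptor, had 34, 29 and 3 counts in A549 and 97, 6 and 13 in BEAS-2B. It did not reach an ND value of 7 in any library and could not be called, although all 4 treated libraries lay under their control beyond counting error. In A549 the level was 1.98-fold (1.17 to 3.36) lower at 1 ng/mL and 14.5-fold (4.55 to 73.7) lower at 5 ng/mL, the latter on 3 counts. In BEAS-2B it was 16.0-fold (7.10 to 44.7) and 6.61-fold (3.69 to 12.9) lower. Its change exceeded that of TGFBR2 in 3 of the 4 treated libraries, since the ratio of TGFBR3 to TGFBR2 was 0.245 (0.0473 to 0.801) of its control value in A549 at 5 ng/mL and 0.117 (0.0408 to 0.276) and 0.265 (0.131 to 0.501) of it in BEAS-2B. At 1 ng/mL in A549 it was 1.01 (0.580 to 1.76) of the control value.

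**Figure D3:**
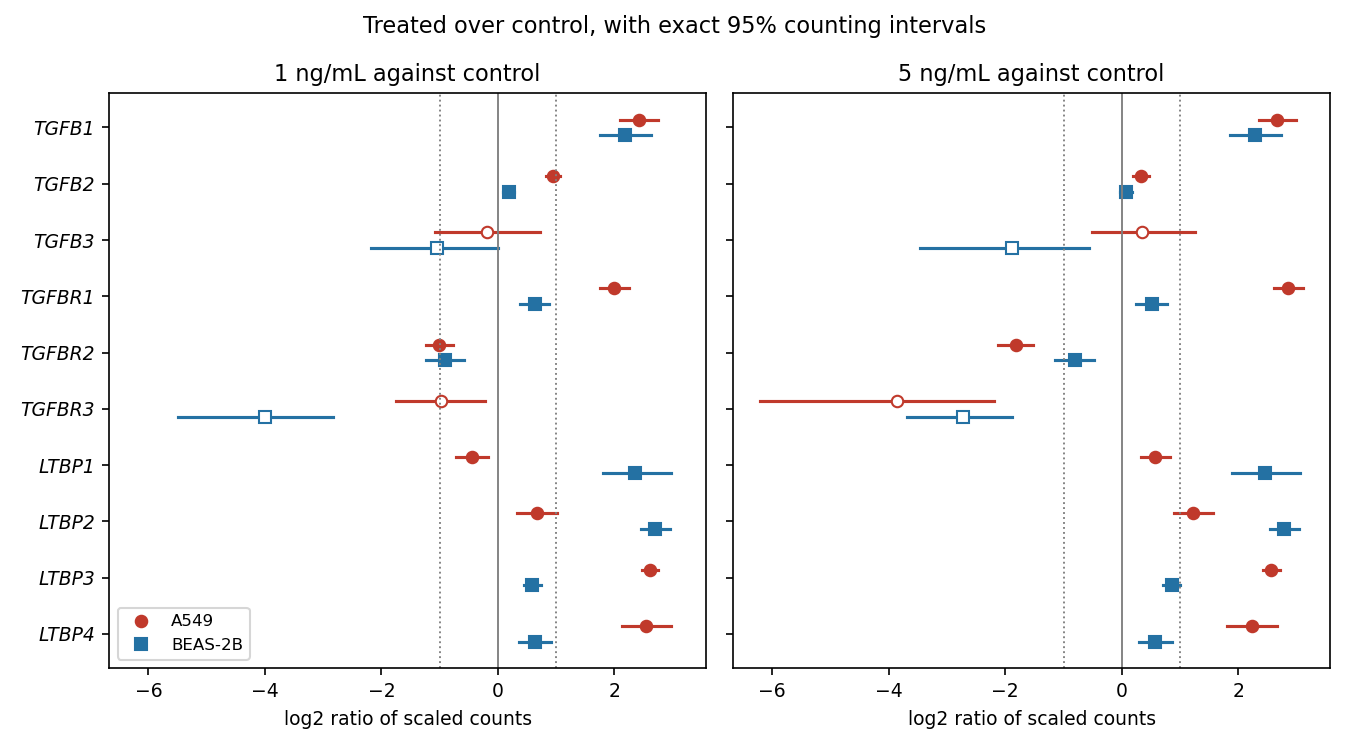
The log2 ratio of treated over control scaled counts for the 10 genes at 1 ng/mL (left) and 5 ng/mL (right) in A549 (circles) and BEAS-2B (squares), with exact 95% counting intervals as lines and an FC of 2 as dotted lines; open symbols did not reach an ND value of 7 in either library. TGFBR1 lies on the right and TGFBR2 and TGFBR3 on the left in all 4 treated libraries, and the LTBP genes separate by cell line.

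The ratios of the 4 LTBP genes to their controls differed by cell line, larger in A549 for LTBP3 and LTBP4 and in BEAS-2B for LTBP1 and LTBP2. LTBP2 was nevertheless called in both lines at 5 ng/mL. LTBP3, which binds latent ligand, had 442, 4558 and 3331 counts in A549 and 657, 980 and 1052 in BEAS-2B. It rose 6.12-fold (5.54 to 6.76) and 5.90-fold (5.34 to 6.53) in A549, and its ratio in BEAS-2B was 1.5 (1.36 to 1.66) and 1.81 (1.64 to 2.0), which was no call. LTBP4, which is also needed for elastic fibre assembly, had 54, 530 and 323 counts in A549 and 181, 278 and 239 in BEAS-2B. It rose 5.82-fold (4.39 to 7.85) and 4.68-fold (3.50 to 6.37) in A549, against ratios of 1.55 (1.28 to 1.88) and 1.49 (1.22 to 1.82) in BEAS-2B. LTBP3 and LTBP4 moved nearly in proportion, since the ratio of LTBP4 to LTBP3 was between 0.794 and 1.03 of its control value in the 4 treated libraries, each interval holding 1.

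LTBP1 and LTBP2 showed the larger differences in BEAS-2B. LTBP1, which binds latent ligand, had 31, 158 and 151 counts in BEAS-2B, with the control under and both treated libraries over the ND value of 7. It rose 5.14-fold (3.48 to 7.82) and 5.5-fold (3.72 to 8.38) there. In A549 LTBP1 had 208, 257 and 395 counts, a ratio of 0.733 (0.608 to 0.884) at 1 ng/mL and 1.49 (1.25 to 1.77) at 5 ng/mL. The A549 library at 1 ng/mL was therefore under and that at 5 ng/mL over the control, both beyond counting error and neither called. LTBP2, the matrix protein that does not tether latent ligand, had 160, 1029 and 976 counts in BEAS-2B and rose 6.49-fold (5.49 to 7.71) and 6.89-fold (5.82 to 8.19). In A549 it had 99, 266 and 295 counts, with a ratio of 1.59 (1.26 to 2.03) at 1 ng/mL, and it rose 2.33-fold (1.85 to 2.96) at 5 ng/mL.

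Within a library, LTBP1 counts per LTBP3 count were 0.120 (0.0969 to 0.148) and 0.252 (0.207 to 0.308) of the control value in A549, and 3.42 (2.28 to 5.26) and 3.04 (2.03 to 4.69) times it in BEAS-2B. For LTBP2 counts per LTBP3 count these values were 0.261 (0.202 to 0.339) and 0.395 (0.307 to 0.513) in A549 and 4.31 (3.54 to 5.27) and 3.81 (3.13 to 4.65) in BEAS-2B. The balance among the LTBP genes thus shifted to LTBP3 and LTBP4 in A549 and to LTBP1 and LTBP2 in BEAS-2B, and these opposite intervals do not overlap. Set against TGFB1, LTBP1 was at 1.13 (0.686 to 1.90) and 1.13 (0.681 to 1.90) of its control proportion in BEAS-2B, and at 0.137 (0.102 to 0.184) and 0.234 (0.176 to 0.310) of it in A549.

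The GC content of the annotated transcripts was 64.2% for LTBP3, 63.9% for LTBP4, 61.6% for LTBP2 and 58.8% for TGFB1, against 39.9% to 53.6% for the other 6 genes. In A549 at 5 ng/mL, removing the trend of log2 FC with GC over all genes lowered the log2 FC of LTBP3 from 2.56 to 1.81, of LTBP4 from 2.21 to 1.46 and of LTBP2 from 1.22 to 0.66, which ended the LTBP2 call. At 1 ng/mL it lowered LTBP3 from 2.61 to 1.87, LTBP4 from 2.52 to 1.79 and LTBP2, not called there, from 0.67 to 0.14. The ratios of 2 genes within a library, such as LTBP1 per LTBP3, were not recomputed without this trend. Their intervals do not cover it. The LTBP1 control in BEAS-2B and the LTBP2 and LTBP4 controls in A549 were under the ND value of 7, as was the treated library of the TGFBR2 fall, so that a minimum in both libraries ended those calls.

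**Figure D4:**
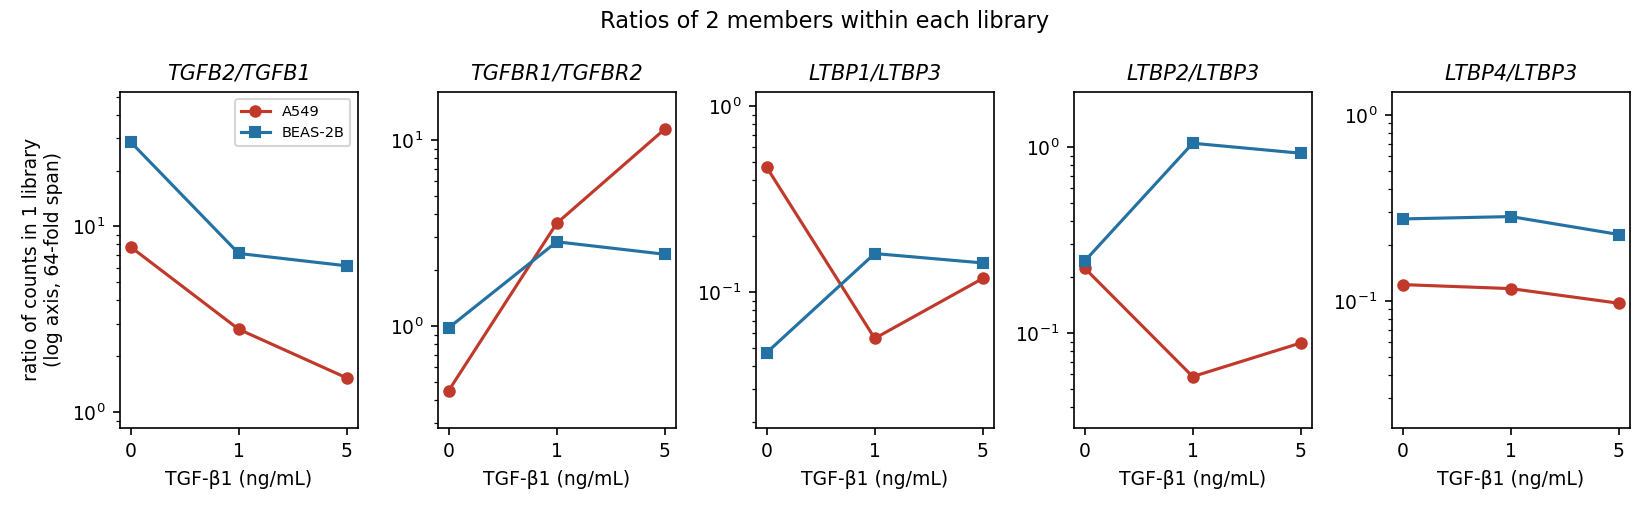
Ratio of the counts of 2 genes within each library (log axes, each spanning 64-fold) by TGF-β1 dose in A549 (circles) and BEAS-2B (squares), without intervals. TGFBR1 per TGFBR2 is higher and TGFB2 per TGFB1 lower at both doses in both cell lines, the latter drawn from all TGFB2 counts and smaller without those of TGFB2-OT1, LTBP1 and LTBP2 per LTBP3 move in opposite directions in the 2 lines, and LTBP4 per LTBP3 differs little by dose.

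The step from 1 to 5 ng/mL was under the FC of 2 for most of the 10 genes in each cell line. In A549, LTBP1 was the only one called, at 2.03-fold (1.73 to 2.38) higher at 5 than at 1 ng/mL, where 1.61% of 6467 entries rose and 1.79% fell. This call lay at the threshold and was lost with total-count scaling and with libraries thinned to the smallest total. Among genes that reached the minimum in A549, those under the FC of 2 but beyond counting error were TGFB1 and TGFBR1, higher as given above, LTBP2 at 1.46 (1.24 to 1.74), TGFBR2, 1.77-fold (1.43 to 2.20) lower, TGFB2, 1.54-fold (1.43 to 1.65) lower, and LTBP4, 1.24-fold (1.08 to 1.43) lower. TGFBR3, under the minimum, went from 29 to 3 counts in A549, 7.32-fold (2.27 to 37.6) lower. In BEAS-2B the TGFBR3 ratio was 2.43 (0.860 to 7.78), an interval that held 1. None of the 10 genes was called in BEAS-2B, where 0.492% of 6306 entries rose and 0.412% fell. The BEAS-2B ratios of 5 over 1 ng/mL for the 8 genes that reached the minimum lay between 0.919 (0.782 to 1.08) for TGFBR1 and 1.2 (1.10 to 1.31) for LTBP3.

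Between the untreated cell lines 3 of the 10 genes were called, where 7 reached the minimum. TGFB2 was 2.19-fold (2.0 to 2.39) and LTBP4 3.23-fold (2.37 to 4.46) higher in BEAS-2B, and LTBP1 was 6.97-fold (4.76 to 10.5) lower. Of 7329 entries tested, 18.9% were called higher in BEAS-2B and 18.1% lower. The 3 calls among 7 genes are thus near the share over all entries. After 5 ng/mL a different set was called. LTBP2 was 4.59-fold (4.03 to 5.25) higher in BEAS-2B, and TGFBR1, TGFB1 and LTBP3 were 3.63-fold (3.20 to 4.15), 2.19-fold (1.89 to 2.54) and 2.28-fold (2.13 to 2.45) lower, against 12.1% of 6837 entries called higher and 14.8% lower. LTBP4, which was lower in A549 at baseline, had a ratio between the lines of 1.03 (0.865 to 1.22) after 5 ng/mL. LTBP1 remained lower in BEAS-2B, by 1.88-fold (1.56 to 2.29), under the FC of 2.

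Ordered by level within each gene, TGFB1 had its lowest scaled counts in both controls, 63.6 (48.2 to 82.4) in BEAS-2B and 107 (85.9 to 131) in A549, and its highest in A549 at 5 ng/mL, 678 (630 to 728). Its treated BEAS-2B libraries, at 288 (254 to 326) and 310 (272 to 351), did not differ beyond counting error. TGFBR1 ran from 177 (150 to 208) in the A549 control to 1282 (1216 to 1351) in A549 at 5 ng/mL, with the 3 BEAS-2B libraries between 248 and 384. TGFBR2 ran the other way in A549, from 395 (354 to 439) in the control, the highest of the 6, to 112 (92.7 to 133) at 5 ng/mL, the lowest. That lowest level overlapped in its interval both treated BEAS-2B libraries, at 135 (112 to 161) and 145 (120 to 174). LTBP2 stood highest in the 2 treated BEAS-2B libraries, at 1158 and 1229, and the other 4 libraries were between 115 and 268. LTBP3 stood highest in the 2 treated A549 libraries, at 3132 and 3022, and the other 4 were between 512 and 1325.

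By the change of ND value over the 6 libraries, with each gene centred on its own mean, the nearest of 5847 entries was MT1X for TGFB1, at a root mean square difference of 0.24. It was PLEKHJ1 for TGFB2 (0.11), ACP2 for TGFBR1 (0.20), CLNS1A for TGFBR2 (0.14), PWARSN for LTBP1 (0.28), VDR for LTBP2 (0.28), FLNA for LTBP3 (0.18) and HES4 for LTBP4 (0.23). TGFB3 and TGFBR3 were too low to be compared. With 6 libraries these values describe likeness only.

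Other genes of the pathway were read from 3 lists. Of 14 other receptors and coreceptors of the family, 6 reached the minimum in A549 at 5 ng/mL, of which 2 rose and 2 fell, and 5 in BEAS-2B, of which 2 rose and none fell. Over all entries tested, 16.1% rose and 17.1% fell in A549 and 7.33% rose and 11.6% fell in BEAS-2B, which is the background for all 3 lists. The median log2 FC of the 14 was -0.06 and 0.41. Over those that reached the minimum it was -0.53 and 0.88, beside 0.11 and 0.03 over all entries tested. BMPR2, a type II receptor for bone morphogenetic proteins, rose 5.24-fold (4.43 to 6.23) in A549, where TGFBR2 fell, and 3.12-fold (2.69 to 3.63) in BEAS-2B. CD109, a coreceptor that dampens TGF-β signalling, fell 6.42-fold (4.47 to 9.46) in A549. In BEAS-2B the largest rise was that of VASN, a membrane protein that can bind TGF-β, at 3.50-fold (2.6 to 4.78).

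Of 18 genes that process, anchor or release latent ligand, 5 of the 8 that reached the minimum rose in A549 at 5 ng/mL and 10 of 12 in BEAS-2B, and none fell in either, beside the 16.1% and 7.33% of all entries that rose. The median log2 FC of the 18 was 0.67 and 1.22. Over those that reached the minimum it was 1.66 and 1.33, beside 0.11 and 0.03 over all entries tested. FURIN, the protease that cuts the TGF-β precursor, rose 3.26-fold (2.87 to 3.71) and 2.06-fold (1.76 to 2.43). ITGAV, the integrin subunit shared by the receptors that release latent TGF-β1, rose 3.09-fold (2.63 to 3.65) and 4.03-fold (3.19 to 5.13). Its partner subunits did not share 1 direction. The only ones called were ITGB1 and ITGB3 in BEAS-2B, which rose 2.09-fold (2.01 to 2.17) and 2.44-fold (1.73 to 3.48). ITGB8 went from 99 to 4 counts in BEAS-2B, 21.9-fold (8.30 to 82.0) lower, without reaching an ND value of 7. ITGB5 was 1.81-fold (1.70 to 1.94) lower in A549, which was no call, and ITGB6 went from 7 to 68 counts there, under the minimum. The largest rise was that of MMP2, a gelatinase, from 9 to 848 counts in A549, 73.8-fold (38.7 to 162), and from 177 to 2004 in BEAS-2B, 12.8-fold (11 to 15.0). The list includes THBS1 and MMP2, which the study singled out on these libraries, and so they are no independent evidence of its direction. FURIN, ITGAV and its partner subunits were named after their values had been seen.

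Of 16 genes of the SMAD relay and its brakes, 4 of the 12 that reached the minimum rose in A549 at 5 ng/mL and 6 of 12 in BEAS-2B, and none fell, beside the same 16.1% and 7.33% that rose. The median log2 FC of the 16 was 0.54 and 0.69. Over those that reached the minimum it was 0.54 and 1.04, beside 0.11 and 0.03 over all entries tested. At 1 ng/mL SMAD3, which TGFBR1 phosphorylates, fell 2.12-fold (1.92 to 2.35) in BEAS-2B, and at 5 ng/mL it was 1.88-fold (1.70 to 2.09) lower there, under the FC of 2. SMAD3 was likewise named after its values had been seen. PMEPA1, which restrains SMAD activation, had the largest rise, 5.01-fold (4.83 to 5.21) in A549 and 21.8-fold (19.9 to 24.0) in BEAS-2B. SMAD7, an inhibitor that targets TGFBR1, rose 8.88-fold (5.17 to 16.4) in BEAS-2B. In A549 SMAD7 had 24 and 132 counts, a ratio of 4.31 (2.77 to 6.96), and stayed under the ND value of 7.

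**Figure D5:**
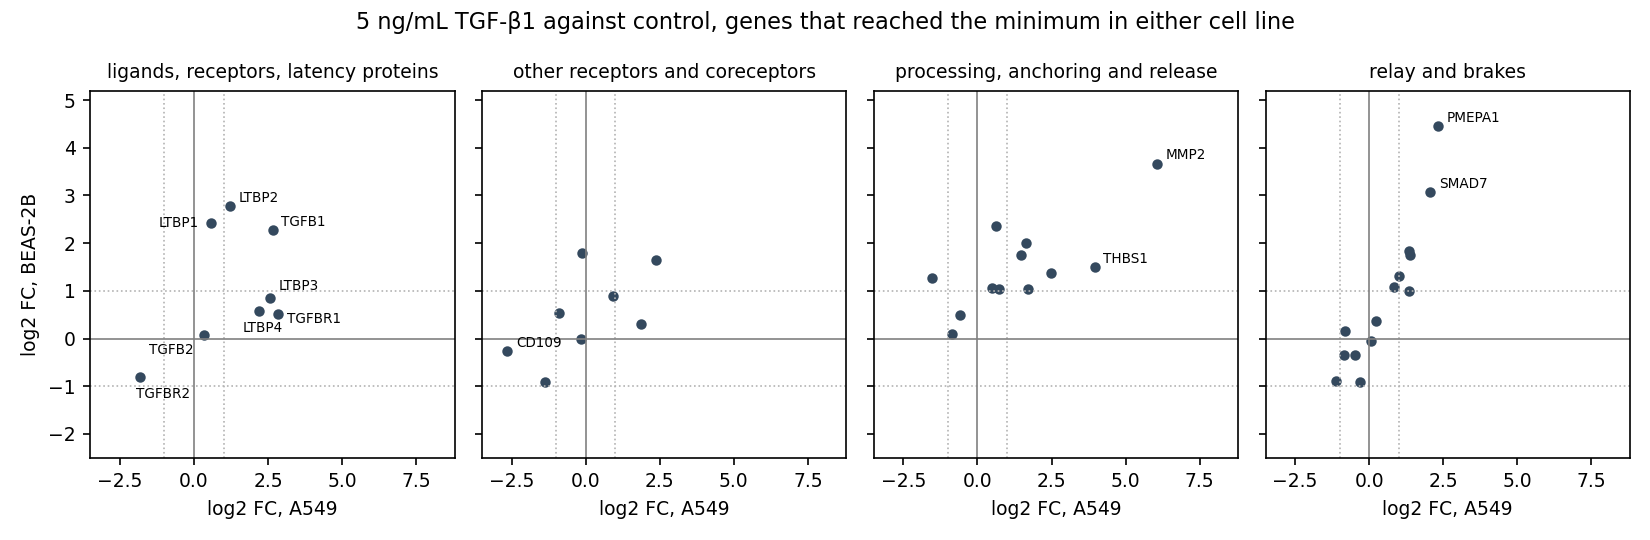
The log2 FC at 5 ng/mL TGF-β1 against control in A549 (horizontal) and BEAS-2B (vertical) for the 10 genes and the 3 pathway lists, 1 point per gene that reached an ND value of 7 in either cell line, with dotted lines at an FC of 2. TGFB1 and LTBP2 lie beyond the dotted lines in both cell lines, TGFBR1, LTBP3 and LTBP4 in A549 alone, LTBP1 in BEAS-2B alone, and TGFBR2 is the gene of the 10 at the lower left.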

How the data were processed

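Total RNA of A549 and BEAS-2B cells was converted to libraries with a QuantSeq 3′ mRNA kit from 500 ng of RNA, 1 library for each of the 6 conditions. The authors deposited whole-number read counts per gene symbol, without normalization, for 25737 entries. The submitters' processing notes name Bowtie2, bedtools and hg19, with no versions, and the study names ExDEGA. The annotation and the strand setting are not given in the sources used here. Of 24462 symbols, 286 had more than 1 entry, but none of the 10 genes did. Groups were taken from the labels. TMM factors were computed with edgeR 4.0.16 in R 4.3.3 over all entries. The scaled count is the count divided by the effective library size times the mean effective size, and FC used a pseudocount of 1. Ratios of scaled counts have exact Clopper-Pearson intervals, levels exact Poisson intervals, and changes of a ratio within a library exact conditional intervals, all at 95% and for counting error only, computed with scipy 1.17.1. Gene positions are from GENCODE v29 on GRCh38 and start windows from RefSeq GRCh38.p14. They describe the genes and not the intervals counted on hg19. The calling step was tested on simulated counts with counting error only and with changes well beyond the FC threshold in genes well above the ND minimum. That simulation therefore does not test replicate error or calls near those thresholds. Scaling, filter, pseudocount, depth, GC trend, minimum and FC threshold were each varied. The genes, lists and rules were chosen with earlier results of these data known. All 10 genes are named, and from each list the genes with the largest called rise and fall at 5 ng/mL. Profiles were matched for genes whose ND value averaged 7 or more, and the nearest of the 3 sought is printed. The threshold values on FC and ND value are those of the study, whereas the TMM scaling behind the ND value and the rule that either library may reach the minimum were chosen here, so that DEG counts are not comparable with the study's. 1 gene of the treatment check list is not reported here.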

Additional observations from a re-analysis of the deposited data

Results flagged for a closer look

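Several genes had log2 FC of opposite sign in the 2 cell lines against their own controls. These differences rest on 1 library per condition and were not tested. LTBP1 was lower in A549 (-0.45) and higher in BEAS-2B (2.33) at 1 ng/mL. TGFB3 was higher in A549 (0.34) and lower in BEAS-2B (-1.76) at 5 ng/mL, with the A549 interval holding no difference. VASN was lower in A549 (-2.02) and higher in BEAS-2B (1.44) at 1 ng/mL, and the values were -0.12 and 1.79 at 5 ng/mL. TGFB2-OT1 had 0.74 in A549 and -0.27 in BEAS-2B at 1 ng/mL. TMEM91, opposite TGFB1, had 1.89 in A549 and -1.04 in BEAS-2B at 1 ng/mL, and 0.97 and -0.81 at 5 ng/mL. HNRNPUL1, also opposite TGFB1, had 0.36 in A549 and -0.28 in BEAS-2B at 1 ng/mL, and 0.17 and -0.25 at 5 ng/mL, and CCDC97 had 0.72 and -0.26 at 1 ng/mL. ITGB5 had -0.64 in A549 and 0.43 in BEAS-2B at 1 ng/mL, and -0.86 and 0.10 at 5 ng/mL. SMAD3 had 0.01 in A549 and -1.08 in BEAS-2B at 1 ng/mL. MTAP had 1.47 in A549 and -0.40 in BEAS-2B at 1 ng/mL, and 2.33 and -0.70 at 5 ng/mL. The intervals of VASN in A549 and of ITGB5 in BEAS-2B at 5 ng/mL also held no difference. So did those of SMAD3 in A549 and of CCDC97 in BEAS-2B at 1 ng/mL.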

How the results depend on the processing

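No replicate could be left out, because each condition has 1 library. No paired analysis was possible because each condition has 1 library and no label ties libraries of different conditions into pairs. The counts of called genes stayed within 1.5 times of the reported count in 97 of 118 recomputations. An ND value of 7 in both libraries gave 2 of the 10 genes in A549 at 1 ng/mL (reported 4), 2 at 5 ng/mL (reported 6), 1 at each dose in BEAS-2B (reported 3 and 3) and 1 between the untreated lines (reported 3). With log2(CPM + 1) as the ND value, a higher bar, these counts were 2, 3, 1, 1 and 1, and the A549 step from 1 to 5 ng/mL gave 0 (reported 1). That step also gave 0 with total-count scaling, with libraries thinned to the smallest total and with an FC of 3. An FC of 1.5 gave 7 in A549 at 1 ng/mL, 4 for its dose step, 7 and 5 in BEAS-2B at 1 and 5 ng/mL and 5 between the untreated lines. An ND minimum of 8 gave 1 between the untreated lines, and an FC of 3 gave 2 between the lines at 5 ng/mL (reported 4). No called log2 FC of the 10 genes changed sign under any scaling, filter, pseudocount or GC setting. The log2 FC of TGFB2 in BEAS-2B at 5 ng/mL, not called, was 0.07 as reported and -0.06 with total counts, and that of LTBP3 between the untreated lines, not called, was 0.52 and -0.07 without the GC trend. With total counts the median of all entries tested moved by -0.17 and -0.20 in A549 at 1 and 5 ng/mL and by -0.13 at both doses in BEAS-2B. After removal of the GC trend 15 of 80 log2 FC moved beyond their counting interval, and with total counts 6 of 80 did. Depth limits TGFB3 and TGFBR3 most, at 3 to 97 counts.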
